A study of Mus musculus with 45 samples.

Results

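Blood and endothelium arise together from mesoderm, and 10 genes that mark the steps of that path were followed through all 45 libraries of the series. The genes were taken by symbol from the 35372 rows of each count table, and each had exactly 1 row. Kdr encodes the main receptor for VEGF-A and marks the mesoderm from which blood, vessels and part of the heart derive. Etv2 is an ETS transcription factor needed for both lineages, Tal1 and its close relative Lyl1 are basic helix-loop-helix factors of blood formation, and Gata1 is a zinc finger factor of red cells and megakaryocytes. Hbb-bh1 and Hba-x encode the embryonic beta-like and alpha-like globins of primitive red cells, which form first in the yolk sac. Cdh5 (VE-cadherin), Pecam1 and Tie1 encode 2 adhesion molecules and a receptor tyrosine kinase of endothelial cells, and Pecam1 is also made by undifferentiated embryonic stem cells.

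The cells were male wild-type mouse E14tg2a embryonic stem cells of 129/Ola background, kept in 2iL (inhibitors of MEK and GSK3 with LIF) or in SL (serum with LIF). They were differentiated on 3 courses. Embryoid bodies (EB) grew in suspension with serum and no LIF, FA cells (labelled EpiSC) adhered in N2B27 with Fgf2 and activin A, and N2B27 cells (labelled Neural) adhered in that serum-free medium alone. Libraries came from days 0, 1, 1.5, 2, 2.5, 3, 5 and 7, with 1 library for each medium, course and day. The exceptions were 3 day 0 libraries in 2iL, a single day 0 library in SL for all of its courses, and day 5 of FA from 2iL, which was not analysed here. The study calls its time courses independent, but nothing states that the libraries of 1 medium and course came from separate cultures. The tests below therefore took media, days or courses as stand-ins for replicates and measured the spread between these libraries, which may be technical. Total counts ran from 13093226 to 39804240 per library, and the 8 EB libraries from 2iL (31055159 to 39804240) were deeper than most of the other 37. Levels are given as CPM, counts of a gene per 1000000 counts of its library, and 3 counts corresponded to 0.0754 to 0.229 CPM. In such bulk RNA, fewer cells of a type and less RNA per cell cannot be told apart.

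The 10 genes are protein coding, and their counts cover the exons at these positions of GRCm38. Kdr lies on chromosome 5 (75932827 to 75978458, minus strand), Etv2 on chromosome 7 (30633616 to 30635852, minus strand), Tal1 on chromosome 4 (115056426 to 115071755, plus strand), Gata1 on chromosome X (7959260 to 7978071, minus strand) and Lyl1 on chromosome 8 (84701457 to 84704715, plus strand). Hbb-bh1 lies on chromosome 7 (103841637 to 103843164, minus strand), Hba-x on chromosome 11 (32276400 to 32278116, plus strand), Cdh5 on chromosome 8 (104101625 to 104144511, plus strand), Pecam1 on chromosome 11 (106654217 to 106750628, minus strand) and Tie1 on chromosome 4 (118471191 to 118490061, minus strand). RefSeq promoter sequences (GRCm38.p6) matched 7 of the 10 genes, with 8 start sites. Those of Kdr, Tal1 and Tie1 are shown because these 3 genes passed the test as higher at day 7 than at day 5 of EB differentiation. That of Hba-x is shown because it held more GATA matches than the others. Each is the 250 bases before the start site on the gene's own strand, 5′ to 3′, with capitals for a GATA match or an ETS core on either strand. A GATA match was one of 4 forms, namely AGATAA, the second form AGATAG, the third form TGATAA and the fourth form TGATAG. An ETS core was CCGGAA or the other core AGGAAG.
Kdr, chr5:75978456-75978705, minus strand: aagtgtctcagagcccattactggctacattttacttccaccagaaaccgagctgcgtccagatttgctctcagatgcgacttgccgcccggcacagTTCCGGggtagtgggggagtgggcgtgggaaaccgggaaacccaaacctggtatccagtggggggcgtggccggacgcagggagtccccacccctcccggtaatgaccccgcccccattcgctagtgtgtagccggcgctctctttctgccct
Tal1, chr4:115056176-115056425, plus strand: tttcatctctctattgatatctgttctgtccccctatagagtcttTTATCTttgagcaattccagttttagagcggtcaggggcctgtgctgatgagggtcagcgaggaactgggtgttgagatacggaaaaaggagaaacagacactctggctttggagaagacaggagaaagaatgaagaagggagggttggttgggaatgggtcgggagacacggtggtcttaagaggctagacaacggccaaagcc
Tie1, chr4:118489850-118490099, minus strand: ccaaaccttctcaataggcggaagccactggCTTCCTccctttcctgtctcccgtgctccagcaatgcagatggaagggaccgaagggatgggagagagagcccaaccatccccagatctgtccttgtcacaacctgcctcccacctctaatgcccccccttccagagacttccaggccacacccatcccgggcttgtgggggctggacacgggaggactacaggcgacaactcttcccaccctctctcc
Hba-x, chr11:32276350-32276599, plus strand: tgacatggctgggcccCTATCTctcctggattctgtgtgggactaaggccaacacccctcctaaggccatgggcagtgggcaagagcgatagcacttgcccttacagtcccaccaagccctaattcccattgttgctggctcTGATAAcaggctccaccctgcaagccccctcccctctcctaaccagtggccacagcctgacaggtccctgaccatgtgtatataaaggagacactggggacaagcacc

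A GATA match was present before the start of Hba-x, at 234 and 108 bases upstream, and of Tal1 at 205 bases, and 26.5% of the 32851 promoters of the table hold 1 within the same window. An ETS core was present in the windows of Kdr at 153 bases and Tie1 at 219 bases, and also of Etv2, Gata1 and Lyl1, against 38.2% of all promoters. CACCC occurred at least once in the windows of all 7 matched genes and in 52.0% of all promoters, and the further start site of Tal1 held none of the motifs. These letters describe the windows and were not read as binding sites.

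The day 7 EB library from 2iL was the highest of all 45 in Kdr, Tal1, Lyl1, Hbb-bh1 and Tie1. Pecam1 ranged over the 45 libraries from 1.81 to 148 CPM, Kdr from 0.351 to 140.0 CPM, Tal1 from 0 to 20.2 CPM and Cdh5 from 0 to 17.6 CPM. Etv2, Gata1, Hbb-bh1, Hba-x, Tie1 and Lyl1 nowhere passed 5 CPM. Divided by exon length, the levels in the day 7 EB library from 2iL followed the order Kdr (15.5 CPM per kb), Hbb-bh1 (6.21), Tal1 (4.60), Pecam1 (1.89), Etv2 (1.88), Cdh5 (1.39), Gata1 (1.15), Tie1 (0.953), Hba-x (0.653) and Lyl1 (0.532). At days 5 and 7, 6 of the 9 members that passed the filter on low counts had their highest of 11 values in the day 7 EB library from 2iL, against 13.3% of the 15466 genes tested. Lyl1, which did not pass, was also highest there. Hba-x and Cdh5 were highest in N2B27 libraries, and Etv2 in an EB library of day 5.

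**Figure D1:**
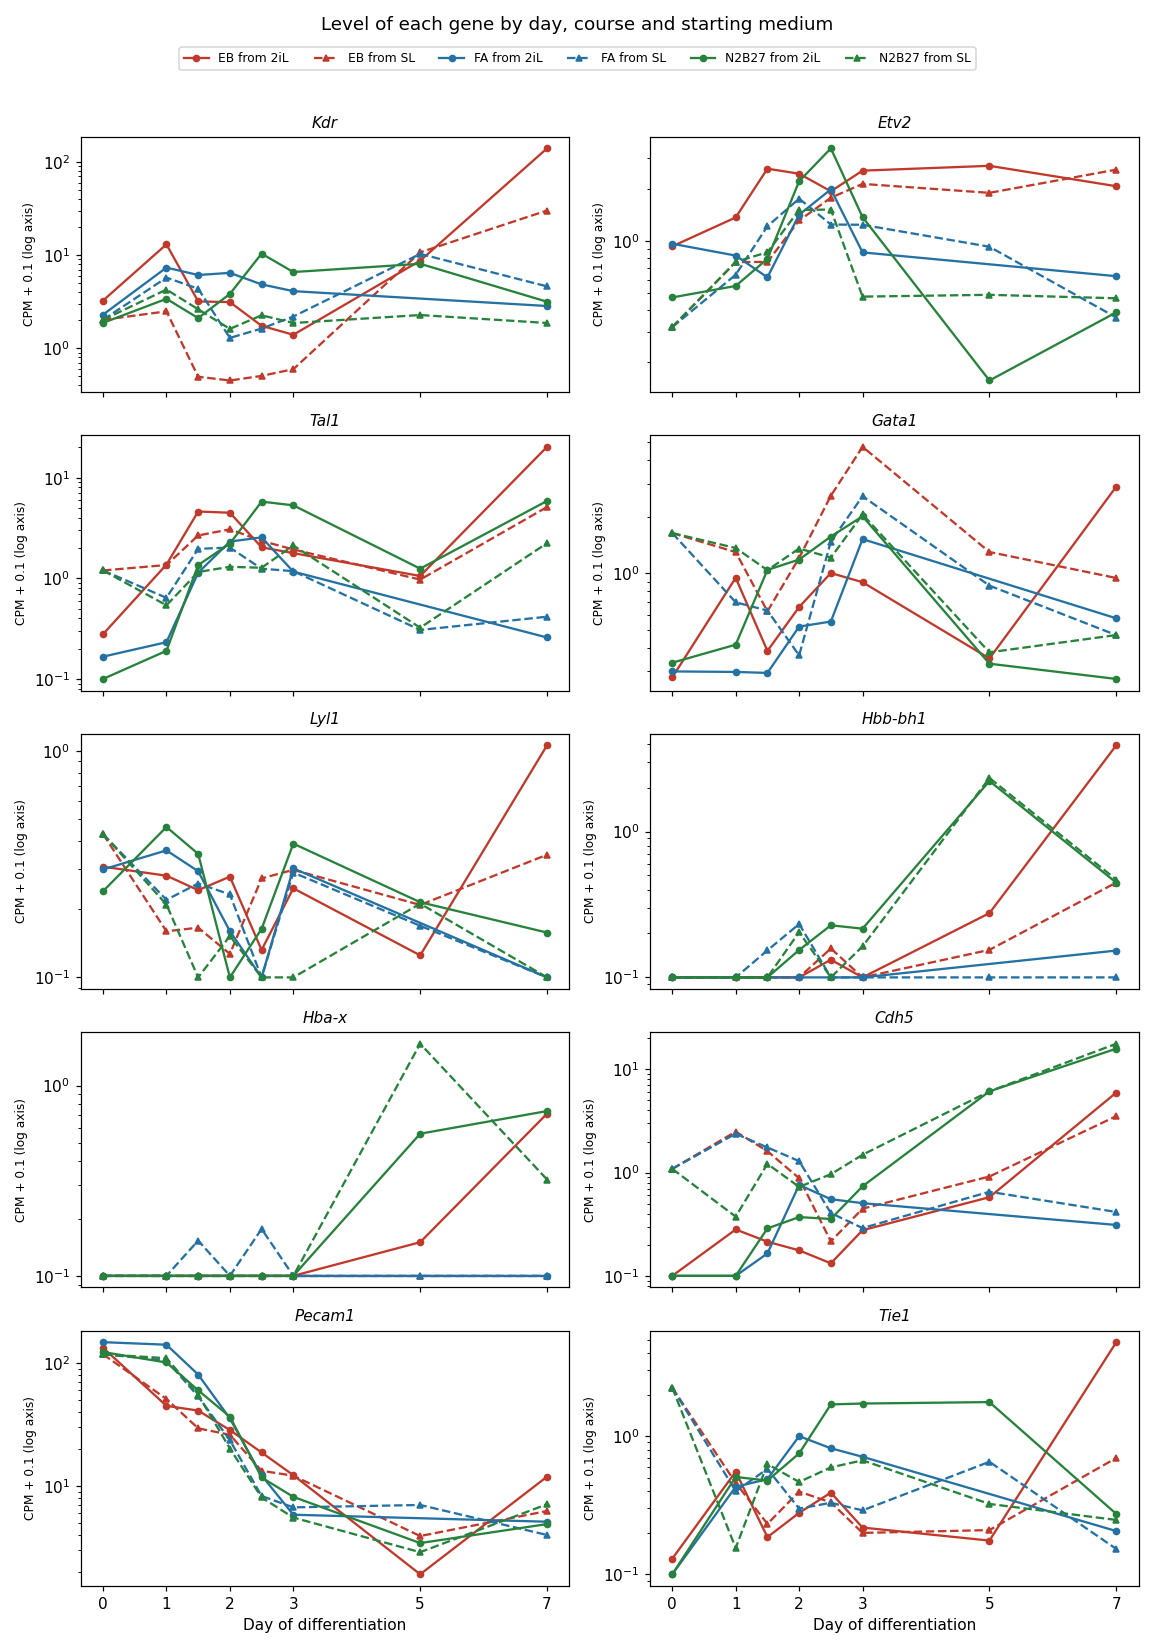
Level of each of the 10 genes (CPM + 0.1, log axis) against day of differentiation, with lines for the 3 courses and the 2 starting media (solid and circles, 2iL; dashed and triangles, SL) and 1 library per point. Kdr, Tal1, Lyl1, Hbb-bh1 and Tie1 reach their highest point in EB from 2iL at day 7, Cdh5 climbs to 15.8 and 17.6 CPM in N2B27, and Pecam1 starts at 118 to 148 CPM on day 0 and lies between 1.81 and 11.8 CPM on days 5 and 7.

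Kdr, the receptor that opens the path, was higher on days 5 and 7 of EB differentiation than on days 2.5 and 3. In EB from 2iL its level was 3.15 CPM on day 0, 13.0 CPM on day 1, 3.08 CPM on day 1.5, 3.03 CPM on day 2, 1.64 CPM on day 2.5 and 1.30 CPM on day 3. It was then 8.62 CPM on day 5 and 140.0 CPM on day 7 (95% Wilson interval 136 to 144, counting error only). In EB from SL it was 1.92 CPM on day 0, 2.39 CPM on day 1, 0.351 to 0.496 CPM from day 1.5 to day 3, 10.6 CPM on day 5 and 30.0 CPM on day 7. The day 1 value in EB from 2iL stood above both of its neighbours in time, and from day 5 on every EB value exceeded every value of days 2.5 and 3. In the adherent courses Kdr stayed between 1.19 and 10.3 CPM in all libraries after day 0, with 10.2 CPM at day 5 of FA from SL and 7.97 CPM at day 5 of N2B27 from 2iL. At day 7 the EB libraries held 51.0 times the FA level and 45.8 times the N2B27 level from 2iL, and 6.65 and 17.0 times from SL.

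Etv2, the ETS factor, was higher in the late EB libraries than in any late library of the adherent courses. In EB it lay between 1.80 and 2.61 CPM in the 4 libraries of days 5 and 7, against 0.263 to 0.828 CPM in the 3 FA libraries and 0.0573 to 0.390 CPM in the 4 N2B27 libraries, so that EB overlapped neither. Its highest value anywhere was 3.32 CPM (52 reads) at day 2.5 of N2B27 from 2iL. Onset was taken as the first day with at least 10 reads and at least 10% of the highest CPM of a time course. By this rule Etv2 was on at day 0 in EB from 2iL and at day 1 in EB from SL, and Kdr at day 7 from 2iL and day 5 from SL. With 5% in place of 10%, the onset of Kdr moved to day 1 in EB from 2iL and to day 0 in EB from SL (1.92 CPM, 35 reads). The rule depends on the highest value, which was 140.0 CPM from 2iL and 30.0 CPM from SL. On day 5 the levels of Kdr were alike, with 8.62 and 10.6 CPM, so these onsets do not show an earlier start from SL.

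Of the blood transcription factors, Tal1 showed 2 periods of higher values in EB. From 2iL it was 0.178 CPM on day 0, 1.27 CPM on day 1, 4.51 CPM on day 1.5 and 4.38 CPM on day 2. It was then 1.93 CPM on day 2.5, 1.68 CPM on day 3, 0.955 CPM on day 5 and 20.2 CPM on day 7. From SL it was 1.10 CPM on day 0, 2.57 and 2.97 CPM on days 1.5 and 2, 0.871 CPM on day 5 and 5.01 CPM on day 7. In N2B27 it was 1.15 CPM on day 5 and 5.77 CPM on day 7 from 2iL, and 0.223 and 2.14 CPM from SL, while the 3 late FA libraries held 0.158 to 0.315 CPM. The late EB libraries thus lay above all late FA libraries and overlapped those of N2B27.

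Gata1 had its highest value at day 3 in 5 of the 6 time courses. Its level at day 3 was 4.62 CPM (93 reads) in EB from SL, 2.47 CPM in FA from SL, 1.96 CPM in N2B27 from SL, 1.91 CPM in N2B27 from 2iL and 1.42 CPM in FA from 2iL. EB from 2iL was the exception, with 0.795 CPM on day 3, 0.251 CPM on day 5 and 2.80 CPM (105 reads) on day 7, whereas EB from SL went from 1.20 CPM on day 5 to 0.843 CPM on day 7. Lyl1 was close to the limit of detection. It had 36 reads (0.958 CPM, interval 0.692 to 1.33) in the day 7 EB library from 2iL, 5 reads (0.248 CPM) in that from SL, and at most 8 reads in every other library. Pooled over the 2 day 7 EB libraries, Lyl1 was at least 8.99-fold higher than in the 2 day 7 FA libraries, which held no read and were set to the floor of 3 counts over both. The library from 2iL gave 36 of the 41 pooled reads, and without it the bound was 3.14-fold.

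The embryonic globins were found mainly at days 5 and 7, in EB and N2B27 libraries. Hbb-bh1 had at most 2 reads in any library up to day 3. It then had 7 reads (0.176 CPM) at day 5 and 143 reads (3.81 CPM, interval 3.23 to 4.48) at day 7 of EB from 2iL, against 1 and 7 reads (0.0544 and 0.347 CPM) in EB from SL. In N2B27 it was 2.12 CPM (37 reads) from 2iL and 2.23 CPM (40 reads) from SL on day 5, and 0.346 and 0.368 CPM on day 7. The 3 late FA libraries held 1 read in all. Hba-x had 23 reads (0.612 CPM) at day 7 of EB from 2iL and none in the late EB libraries from SL. In N2B27 it had 8 reads (0.459 CPM) from 2iL and 28 reads (1.56 CPM) from SL at day 5, and 11 reads (0.635 CPM) and 3 reads (0.221 CPM) at day 7. In the late N2B27 libraries Hba-x was at least 13.2-fold higher than in the FA libraries, which held no read and were set to 3 counts over the 3 libraries. N2B27 from SL at day 5 gave 28 of the 50 pooled reads, and without it the bound was 7.96-fold. Whether reads of each globin were shared with related genes of its cluster was not tested. Of these, Hbb-y stood at 0.0799 CPM and Hba-a1 at 1.22 CPM in the day 7 EB library from 2iL.

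Among the endothelial genes, Cdh5 was highest in N2B27. Its level there was 6.02 CPM on day 5 from either medium, and 15.8 CPM (2iL) and 17.6 CPM (SL) on day 7. In EB it was 0.477 CPM (2iL) and 0.816 CPM (SL) on day 5, and 5.86 and 3.42 CPM on day 7, and in late FA 0.211 to 0.552 CPM. The N2B27 values thus lay above all values of both other courses, by a small margin over the day 7 EB library from 2iL. Tie1 was 0.0754 CPM (3 reads) on day 5 and 4.69 CPM (176 reads) on day 7 of EB from 2iL, and 0.109 and 0.595 CPM in EB from SL. In N2B27 it was 1.66 and 0.173 CPM from 2iL and 0.223 and 0.147 CPM from SL, and in late FA 0.0525 to 0.552 CPM. The day 7 EB library from 2iL was the only late library above 2 CPM.

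Pecam1 was highest in the undifferentiated cells. It was 133, 148 and 123 CPM in the 3 day 0 libraries in 2iL and 118 CPM in SL. In EB from 2iL it was 44.7 CPM on day 1, 12.1 CPM on day 3, 1.81 CPM on day 5 and 11.8 CPM on day 7. From SL the EB values were 50.9 CPM on day 1, 12.0 CPM on day 3, 3.81 CPM on day 5 and 6.15 CPM on day 7. In the adherent courses from either medium it was 101 to 141 CPM on day 1 and 5.43 to 8.05 CPM on day 3. At day 1 the EB values therefore lay below all 4 adherent values, a difference that was not tested.

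**Figure D2:**
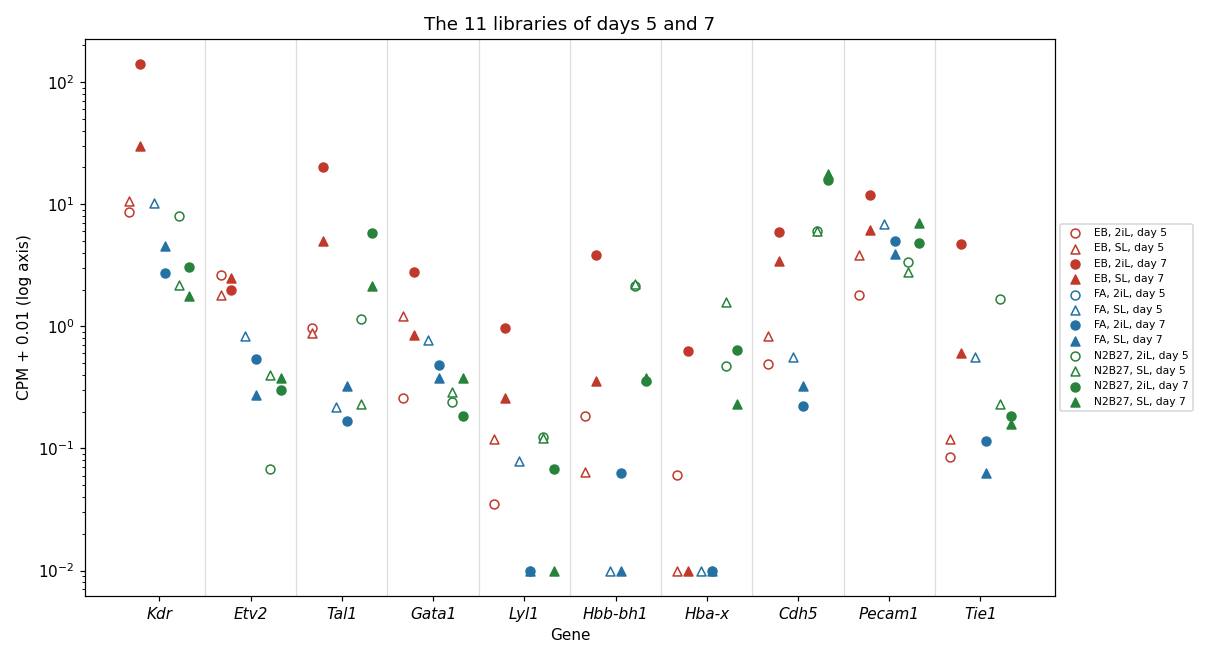
CPM + 0.01 (log axis) of each gene in the 11 libraries of days 5 (open) and 7 (filled), with EB in red, FA in blue and N2B27 in green, circles for cells from 2iL and triangles for cells from SL. EB values of Etv2 lie above all others, N2B27 values of Cdh5 lie above all EB and FA values, and the day 7 EB library from 2iL is highest in Kdr, Tal1, Gata1, Lyl1, Hbb-bh1, Pecam1 and Tie1.

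Between courses at days 5 and 7, the test asked whether the genes differ after allowing for starting medium and day (edgeR quasi-likelihood test on the 11 libraries, 4 of EB, 3 of FA and 4 of N2B27, with Benjamini-Hochberg adjustment over all 15466 genes). Against FA, 1 of the 9 members tested was called, beside 5.95% of all genes. Tal1 was higher in EB by 4.51 on the log2 scale (SE 0.88, adjusted p = 0.0252 by edgeR). Its call was lost without FA from 2iL at day 7 (adjusted p = 0.101), without EB from SL at day 5 (0.0660) and without FA from SL at day 7 (0.0725), and also without the terms for medium and day (0.0869). Etv2 (log2 difference 2.08, SE 0.53, adjusted p = 0.0540) and Cdh5 (2.76, SE 0.75, adjusted p = 0.0634) did not pass, although their levels in EB were above FA in 4 of 4 and 3 of 4 libraries, counted against the highest FA value. Cdh5 was called without FA from SL at day 5 (3.84, adjusted p = 0.0284). Hbb-bh1 had a log2 difference of 5.12 with a wide error (SE 2.14, adjusted p = 0.184 by edgeR). DESeq2 called Etv2 (adjusted p = 0.00763), Cdh5 (0.00371) and Hbb-bh1 (0.0173), as did edgeR with the spread of the 41 libraries of days 1 to 7 (0.0138, 0.0480 and 0.0456), and Etv2 was also called with day 3 included (0.0184). Kdr was not called (log2 difference 2.33, SE 1.14, adjusted p = 0.249 by edgeR), and its EB and FA values overlapped, with 10.6 CPM in EB and 10.2 CPM in FA from SL at day 5.

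Against N2B27, 3 of the 9 members were called, beside 33.5% of all genes, a share near that background. Of the called genes 46.5% were higher in EB, or 59.1% when scaled by library totals alone. Etv2 was higher in EB by 2.92 (SE 0.51, adjusted p = 0.00407 by edgeR) and Kdr by 3.41 (SE 1.04, adjusted p = 0.0332), and Cdh5 was lower by a log2 difference of -2.46 (SE 0.54, adjusted p = 0.00941). The calls of Etv2 and Cdh5 held without each EB and N2B27 library in turn. That of Kdr was lost without EB from 2iL at day 7 (log2 difference 1.99, adjusted p = 0.0959), EB from SL at day 7 (0.0507), N2B27 from 2iL at day 7 (0.107), N2B27 from SL at day 5 (0.0725) or N2B27 from SL at day 7 (0.101), and with day 3 included (1.88, 0.169). Gata1 missed the threshold (log2 difference 2.10, SE 0.73, adjusted p = 0.0530) and passed it without EB from 2iL at day 5 (0.0171) or EB from SL at day 7 (0.0436). It was also called by DESeq2 (0.0249), with library totals (0.0417), without the terms for medium and day (0.0341) and with the spread of 41 libraries (0.00662). Hba-x passed the threshold, as lower in EB, without EB from 2iL at day 7 (0.0201).

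Between the adherent courses 2 of the 9 members were called, beside 21.2% of all genes, and both were lower in FA. Of the called genes 48.2% were higher in FA, or 60.9% when scaled by library totals alone. Cdh5 had a log2 difference of -5.22 (SE 0.77, adjusted p = 0.00393 by edgeR) and held its call without each library in turn, and Tal1 had -3.41 (SE 0.90, adjusted p = 0.0293). The call of Tal1 was lost without FA from 2iL at day 7 (log2 difference -2.07, adjusted p = 0.140), FA from SL at day 7 (0.0879), N2B27 from 2iL at day 7 (0.0658), N2B27 from SL at day 5 (0.0511) or N2B27 from SL at day 7 (0.0548), and without the terms for medium and day (0.132). Hbb-bh1 was not called (log2 difference -6.19, SE 2.21, adjusted p = 0.0763 by edgeR). It was called by DESeq2 (0.000420), with the spread of 41 libraries (0.00591), with day 3 included (0.0177) and without N2B27 from 2iL at day 7 (0.0445). These 3 comparisons share their libraries pairwise and are not independent of each other.

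Within EB, days were compared in 14 libraries with terms for day and starting medium (16471 genes tested, 8 members among them, Lyl1 and Hba-x not passing the filter). From days 1 to 2 to days 2.5 and 3, 2 members were called, both downward, beside 33.3% of all genes. Pecam1 fell by 1.42 on the log2 scale (SE 0.23, adjusted p = 0.00171 by edgeR) and Kdr fell by 1.51 (SE 0.50, adjusted p = 0.0424). Kdr lost its call without any of the day 1, 1.5, 2, 2.5 or 3 libraries from 2iL (adjusted p = 0.0984, 0.244, 0.166, 0.166 and 0.192) and without that of day 2.5 or 3 from SL (0.0922 and 0.0780). It also lost the call without the term for medium (0.204) and with library totals in place of TMM factors (0.0506), whereas Pecam1 held its call throughout.

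From days 2.5 and 3 to days 5 and 7, 4 of the 8 members were called, beside 45.5% of all genes. Kdr rose by 5.07 on the log2 scale (SE 0.53, adjusted p = 0.000118 by edgeR), Hbb-bh1 by 5.17 (SE 1.03, adjusted p = 0.00983) and Cdh5 by 3.92 (SE 0.86, adjusted p = 0.00520), while Pecam1 fell by 1.53 (SE 0.25, adjusted p = 0.00132). The calls of Kdr, Cdh5 and Pecam1 held without each library in turn. Hbb-bh1 lost its call without the 2iL library of day 2.5 (adjusted p = 0.0502 by edgeR), day 3 (0.0743) or day 5 (0.0780). It had passed the filter on low counts only through the day 7 libraries, where it was highest. Its call was thus in part set by the filter and is no independent support for a rise. Gata1 was called as lower without the 2iL library of day 7 (-1.74, adjusted p = 0.0118), and Tal1 (1.06, 0.00783) and Tie1 (1.88, 0.00772) as higher without the SL library of day 7.

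From day 5 to day 7, with 2 libraries a day, 4 of the 8 members were called and all 4 rose, beside 5.59% of all genes called. Tie1 rose by 4.80 (SE 0.92, adjusted p = 0.0193 by edgeR), Tal1 by 3.72 (SE 0.54, adjusted p = 0.00704), Kdr by 2.55 (SE 0.61, adjusted p = 0.0421) and Pecam1 by 1.76 (SE 0.38, adjusted p = 0.0285). Hbb-bh1 (3.97, SE 0.88, adjusted p = 0.0630 by edgeR) and Cdh5 (3.29, SE 0.96, adjusted p = 0.0802) were higher on day 7 in both media without passing. Here too Hbb-bh1 had passed the filter on low counts only through the day 7 libraries. Without the 2iL library of day 5 none of the 4 calls was kept (adjusted p = 0.225 for Tie1, 0.0948 for Tal1, 0.112 for Kdr and 0.204 for Pecam1). Without the 2iL library of day 7, Tie1 (0.0990), Kdr (0.129) and Pecam1 (0.131) lost theirs, Tie1 also lost it without the SL library of day 5 (0.0759), and without the SL library of day 7 the count was 7 of 10 tested, with Gata1 (0.0142), Hbb-bh1 (0.0290) and Cdh5 (0.00810) called as well. Without the term for medium, Kdr (0.247) and Pecam1 (0.0563) were not called.

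**Figure D3:**
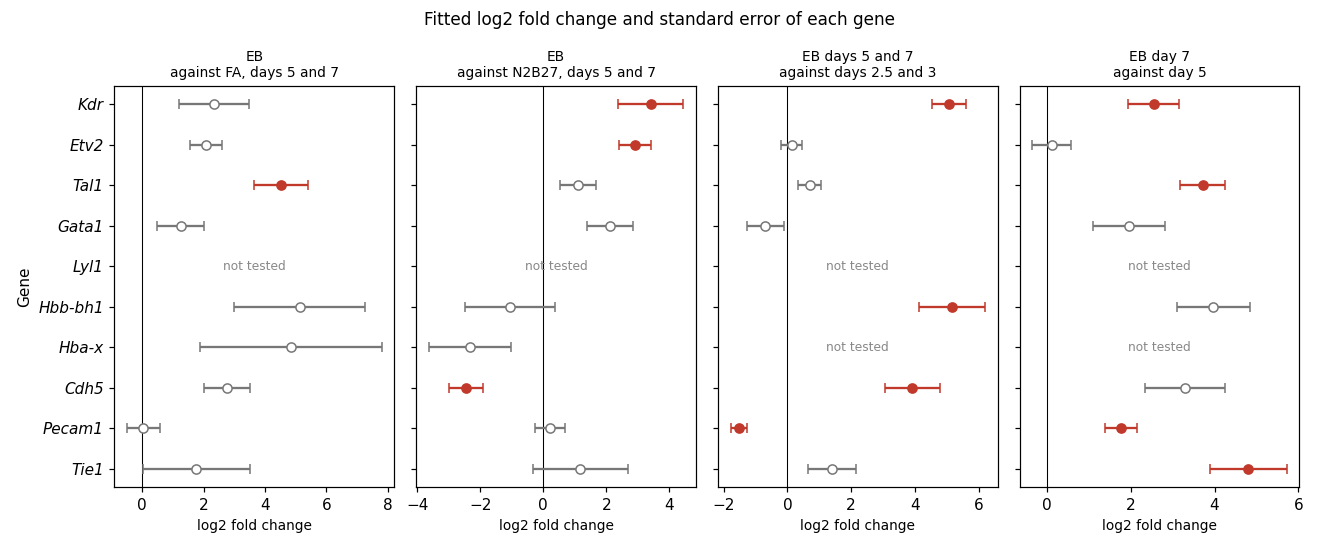
Fitted log2 fold change (point) and standard error (bar) of each gene in 4 comparisons, with filled red points at an adjusted p under 0.05 and open grey points otherwise; genes that did not pass the filter are marked as not tested. Kdr lies to the right of 0 in all 4 panels, Cdh5 lies at -2.46 against N2B27, and Pecam1 lies at -1.53 from days 2.5 and 3 to days 5 and 7 and at 1.76 from day 5 to day 7.

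The course of Hbb-bh1, Tie1 and Kdr between days 5 and 7 ran in opposite directions in EB and N2B27, with higher values at day 7 in both EB media and lower values in both N2B27 media. The share of all genes with such opposite directions is not given here. Some of these directions rest on few reads, since Tie1 had 4 and then 2 reads in N2B27 from SL (intervals 0.0867 to 0.573 and 0.0404 to 0.537 CPM) and Hbb-bh1 had 1 and then 7 reads in EB from SL (0.00961 to 0.308 and 0.168 to 0.716 CPM). The intervals of Kdr in N2B27 from SL overlapped as well (1.59 to 2.97 and 1.19 to 2.63 CPM). The difference of the 2 changes, a comparison chosen after the values were seen, called 1 of the 10 members beside 2.23% of 16028 genes. Tie1 had a difference of 7.07 on the log2 scale (SE 1.28, adjusted p = 0.0398 by edgeR), Hbb-bh1 of 6.61 (SE 1.34, adjusted p = 0.0544) and Kdr of 3.85 (SE 1.04, adjusted p = 0.108). The call of Tie1 was lost without EB from 2iL at day 5 or 7 (adjusted p = 0.205 and 0.0688), without N2B27 from 2iL at day 5 or 7 (0.273 and 0.222) and without N2B27 from SL at day 5 or 7 (0.0804 and 0.136). Without EB from SL at day 7, Hbb-bh1 (adjusted p = 0.00898) and Kdr (0.0379) were called as well.

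The starting medium was compared in EB over days 3, 5 and 7, with 3 pairs of libraries. No member was called, beside 3.82% of all genes, and 3 members had an unadjusted p under 0.05 by edgeR. At day 7 the library from 2iL held 4.66 times the Kdr level of that from SL, 4.02 times the Tal1 level, 3.32 times the Gata1 level, 10.97 times the Hbb-bh1 level, 7.88 times the Tie1 level, 3.87 times the Lyl1 level, 1.92 times the Pecam1 level and 1.71 times the Cdh5 level, but 0.795 times the Etv2 level. At day 5 the ratios were 0.812 for Kdr, 1.45 for Etv2, 1.10 for Tal1, 0.210 for Gata1, 0.475 for Pecam1 and 0.585 for Cdh5. Over the 3 days the log2 difference was 1.08 for Kdr (SE 0.43, adjusted p = 0.210 by edgeR), 3.06 for Hbb-bh1 (SE 0.74, adjusted p = 0.106) and 1.89 for Tie1 (SE 0.70, adjusted p = 0.177). Kdr was called without the day 5 library of either medium (1.99, adjusted p = 0.0206 without 2iL and 0.0211 without SL). Gata1 was called as lower from 2iL without the day 7 library of either medium (-2.42, adjusted p = 0.0210 without 2iL and 0.0214 without SL), and Tie1 then had a log2 difference of -0.11. Whether the EB level relative to the adherent courses depended on the medium was tested as an interaction. It called 0 of 10 members and 0% of 16028 genes by edgeR, with 0 members and 1380 genes at an unadjusted p under 0.05, and DESeq2 called 0 members and 100 genes.

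On leaving 2iL, the first day brought no call among the 9 members tested, beside 28.6% of all genes (edgeR on the 23 libraries from 2iL, with 1 member at an unadjusted p under 0.05 and 1 called by DESeq2). By day 3, 4 members were called, beside 51.4% of all genes. Tal1 rose by 5.08 (SE 1.31, adjusted p = 0.00420 by edgeR), from 0, 0.0665 and 0.178 CPM to 1.06, 1.68 and 5.21 CPM. Gata1 rose by 2.83 (SE 0.84, adjusted p = 0.0105 by edgeR) and Tie1 by 5.02 (SE 1.95, adjusted p = 0.0406), while Pecam1 fell by 3.97 (SE 0.45, adjusted p = 3.23e-06). The rise of Tie1 starts near 0, with 1 read in all in the day 0 libraries. On day 3 Tie1 had 4 reads in EB, 12 in FA and 28 in N2B27. Cdh5 went from no read in the 3 day 0 libraries to 6, 8 and 11 reads, at least 8.23-fold above the floor of 3 counts over the group, and did not pass (adjusted p = 0.0507 by edgeR). It was called by DESeq2 (0.00405), with library totals (0.0486) and without the term for course (0.0456). The call of Gata1 was lost without the day 0 library of the EB course (adjusted p = 0.0532). That of Tie1 was lost without any of the 3 day 0 libraries (0.0733, 0.0929 and 0.142 for those of EB, FA and N2B27) and without day 3 of FA (0.0697) or N2B27 (0.133).

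Before differentiation, 4 of the 7 members tested were lower in 2iL than in SL and none was higher, beside 30.8% of all genes called. The spread came from the 3 libraries in 2iL, and the lone SL library was taken to vary in the same way. The test therefore set 1 SL library against those in 2iL, and the difference between media has no replicate check. Tie1, Cdh5, Gata1 and Tal1 passed the filter on low counts only through the SL library, where they were highest. Their entry into the test thus depended on the library in which they were high. Their shared direction is therefore no independent support for a difference between media. Tie1 was 2.14 CPM (39 reads) in SL and had 1 read in all in 2iL (log2 difference -6.71). Cdh5 was 0.987 CPM (18 reads) in SL, at least 23.1-fold higher than in 2iL, where no library held a read. Gata1 was 1.54 CPM in SL against 0.178, 0.200 and 0.233 CPM (log2 difference -2.84). Tal1 was 1.10 CPM against 0, 0.0665 and 0.178 CPM (-3.39). Genes of extraembryonic endoderm stood high in the same SL library, with a summed level of 457 CPM over 11 genes against 5.97 to 7.17 CPM in 2iL. Their part in the levels of Tie1 and Cdh5 was not tested.

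Related genes were counted on lists chosen with earlier results of these data known. Of the 16 other blood transcription factors, 11 passed the filter at days 5 and 7 and none was called between EB and FA, beside 5.95% of all genes, with a median log2 difference of 0.54 against 0.01 over all genes. Between days 5 and 7 of EB, 2 of 14 rose and 1 fell, beside 5.59% of all genes, with a median of 1.67 against 0.01. Ldb1, a cofactor of Tal1 complexes, rose by 0.49 (SE 0.12, adjusted p = 0.0396 by edgeR), and Gata2, a factor of blood progenitors named after its values were seen, rose by 3.31 (SE 0.51, adjusted p = 0.00904). Myb, a factor of proliferating progenitors, fell by 2.32 (SE 0.18, adjusted p = 0.000529). Zfpm1, the cofactor of Gata1, was 5.50 CPM on day 5 and 35.1 CPM on day 7 of EB from 2iL, and Runx1, a factor of blood stem cell formation, 1.96 and 15.5 CPM. Fli1, an ETS factor also named after its values were seen, was 0.176 and 13.8 CPM in the same libraries and 3.47 CPM in EB from SL at day 7. In N2B27 at day 7, Runx1 was 28.1 (2iL) and 24.7 CPM (SL), and Zfpm1 29.3 and 23.3 CPM. Gata2 there was 9.93 and 12.2 CPM, and Fli1 0.115 and 0.221 CPM. Runx1 was also 24.2 CPM at day 5 of FA from SL and 10.0 CPM in SL at day 0.

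Several genes of mature red cells stayed near the limit of detection. Of 19 other erythroid genes found, 10 passed the filter at days 5 and 7, and 1 of these, Add2 (a membrane skeleton gene named after its values were seen), was called between EB and FA and was lower in EB, beside 5.95% of all genes. Against N2B27, 1 of the 10 was higher and 2 were lower in EB, beside 33.5% of all genes. In the day 7 EB library from 2iL, Alas2 (the first enzyme of red cell haem synthesis) stood at 0.612 CPM, the adult globin genes Hbb-bs and Hbb-bt at 0.213 and 0.0532 CPM, and Rhag at 0. Car2, a carbonic anhydrase, gave 117 CPM of the summed 158 CPM of the list there, and its highest late value was 488 CPM in FA from SL at day 5. Bpgm, which sets the red cell's bisphosphoglycerate, and Slc25a37, a mitochondrial iron carrier, stayed between 12.3 and 22.4 CPM in late EB.

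Endothelial genes other than the members moved in both directions. Of 20 tested, 3 were higher and 1 lower in EB than in FA, beside 5.95% of all genes, and 3 were higher and 3 lower in EB than in N2B27, beside 33.5%. Aplnr, the apelin receptor of mesoderm and young vessels, was higher in EB than in FA by 5.59 (SE 0.74, adjusted p = 0.00716 by edgeR) and than in N2B27 by 6.52 (SE 0.70, adjusted p = 0.000839). Its levels at days 5 and 7 were 36.6 and 113 CPM from 2iL and 11.5 and 37.2 CPM from SL, with at most 1.52 CPM in late adherent libraries. Flt1, another VEGF receptor, had 19.0 to 53.4 CPM in late EB and 20.2 to 120 CPM in late N2B27 libraries. Ramp2, a receptor partner of vessel cells, had 65.7 to 76.4 CPM in late EB and 53.8 to 64.1 CPM in late N2B27, and Egfl7, a protein that endothelial cells release, 16.0 to 24.7 and 15.8 to 30.6 CPM. From day 5 to day 7 of EB, 3 of 22 endothelial genes rose and none fell, beside 5.59% of all genes, with a median of 1.46. Of the ligands, 2 of 15 rose over the same days, Bmp4 and Vegfc, which were named after their values were seen. Vegfa, the ligand of Kdr, was 28.4 and 85.7 CPM from 2iL and 35.1 and 64.1 CPM from SL without being called. Apln, the ligand of Aplnr, was 75.5 and 7.93 CPM from 2iL, Kitl 4.12 and 28.4 CPM and Vegfb 22.4 CPM on both days.

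Of 16 megakaryocyte and leukocyte genes, 5 passed the filter, and none was called between EB and FA or between days 5 and 7, beside 5.95% and 5.59% of all genes. Their summed level was 37.2 CPM in the day 7 EB library from 2iL, of which Cd68 gave 29.8 CPM and Itga2b, an integrin of megakaryocytes and early blood cells, 4.69 CPM. Ptprc, the pan-leukocyte antigen, stood at 0.0799 CPM, Pf4 at 0.0266 CPM, and Gp9, Lyz2 and Fcgr1 at 0. Csf1r, a macrophage receptor, was 0.266 CPM there and up to 5.14 CPM in late N2B27, and Gp1bb, a platelet gene, 1.22 CPM and up to 4.79 CPM.

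Of 13 early mesoderm genes, 7 were higher and none lower in EB than in FA, beside 5.95% of all genes, with a median log2 difference of 3.39. Against N2B27, 7 were higher and 1 lower, beside 33.5%, and 12 rose from days 2.5 and 3 to days 5 and 7 of EB, beside 45.5%. T and Eomes, factors of the primitive streak, were highest of the late libraries on day 5 of EB from 2iL (370 and 266 CPM, then 73.1 and 54.7 CPM on day 7). Hand1, a factor of lateral and extraembryonic mesoderm, was instead 1.98 CPM on day 5 and 364 CPM on day 7, against 4.08 and 18.2 CPM from SL. Pdgfra, a receptor of mesoderm that extraembryonic endoderm also makes, was the gene lower than in N2B27, with 24.9 to 89.6 CPM in late EB and 94.6 to 345 CPM in late N2B27. The summed level of the list was 776 CPM on day 5 and 726.8 CPM on day 7 of EB from 2iL, 222 and 266 CPM of EB from SL, 41.6 to 97.5 CPM in late FA and 106 to 373 CPM in late N2B27. The sums of EB from SL thus lay within the N2B27 range. Its part in the level of Kdr was not tested.

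Genes of extraembryonic endoderm stood high in the N2B27 libraries in which Cdh5 and Hba-x were highest. Their summed level over 11 genes was 1208 to 2925 CPM in the 4 late N2B27 libraries, 141 to 663 CPM in late FA, 2156 and 3300 CPM in EB from SL and 182 and 274 CPM in EB from 2iL. Of the 11, 4 were lower and 1 higher in EB than in N2B27, beside 33.5% of all genes, with Cubn, the cubilin of visceral endoderm (816 to 1783 CPM in N2B27), and Dab2 (240 to 562 CPM) among those lower and Afp, alpha-fetoprotein, higher. None of the 11 had its highest of 11 late values in the day 7 EB library from 2iL, beside 13.3% of all genes. None of the 10 neural or 8 pluripotent genes did so either. Sox17, which marks both endothelium and endoderm, was 22.4 to 59.1 CPM in late N2B27 and 3.29 to 24.6 CPM in late EB. Apob, an apolipoprotein of the same endoderm, was 33.1 to 142 CPM in N2B27 and 848 and 1526 CPM in EB from SL. The part of these genes in the levels of Cdh5 and the globins was not tested. The summed neural list was 434 to 863 CPM in late N2B27 and 149 to 298 CPM in late EB, the cardiac list 17.3 to 56.0 and 12.6 to 44.3 CPM, and the pluripotent list 65.0 to 326 and 165 to 978 CPM.

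**Figure D4:**
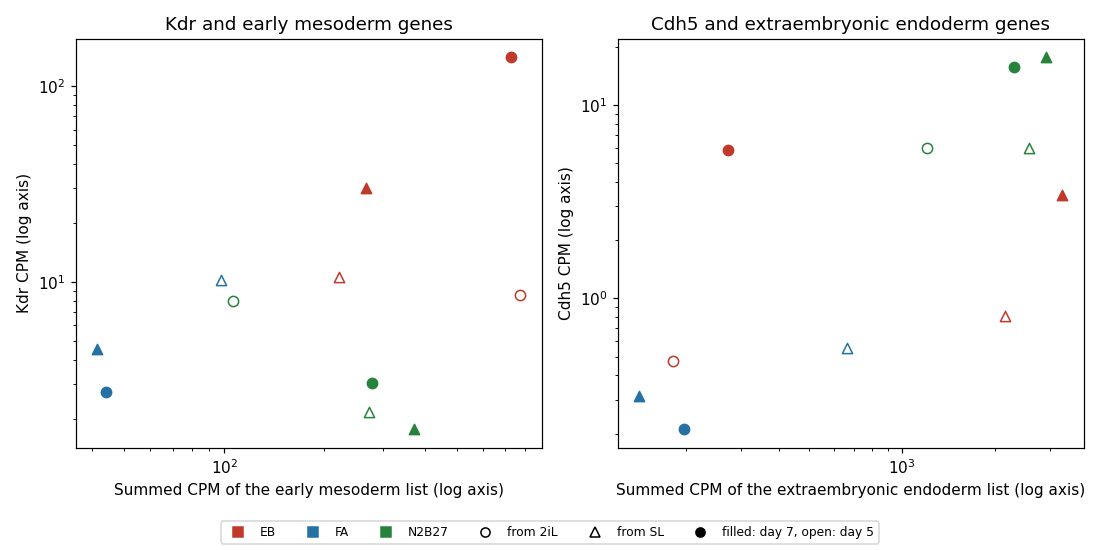
Kdr against the summed early mesoderm genes (left) and Cdh5 against the summed extraembryonic endoderm genes (right) in the 11 libraries of days 5 and 7, in CPM on log axes, with EB red, FA blue, N2B27 green, circles from 2iL, triangles from SL, open for day 5 and filled for day 7. EB from 2iL at days 5 and 7 has like mesoderm sums (776 and 726.8 CPM) at 8.62 and 140.0 CPM of Kdr, and EB from SL at day 7 joins an endoderm sum of 3300 CPM with 3.42 CPM of Cdh5.

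The genes with a pattern most like each member were listed by Pearson's r of log2(CPM + 0.1) over the 45 libraries among 15457 genes that were no members, as a description in which all points share the same libraries and depths. Pecam1 was nearest to Ooep (r = 0.95), Sept1 (0.94) and Mtf2 (0.94), and Cdh5 to Bace2 (0.90), Sox17 (0.89) and Fgfr3 (0.88). Hbb-bh1 was nearest to Gdf10 (0.87), Hapln1 (0.81) and Crb2 (0.80), and Hba-x to Dbx1 (0.81), Serpinb9e (0.79) and Pitx1 (0.79). Tie1 was nearest to Peg10 (0.69), Hand1 (0.64) and the ETS factor Erg (0.64), Gata1 to the endothelial genes Fgd5 (0.74), Plvap (0.69) and Nos3 (0.69), and Lyl1 to Ddx19b (0.59), Hhex (0.57) and Smad6 (0.56). Kdr was nearest to Wnt2b (0.73), Cd300a (0.72) and Erc1 (0.72), Etv2 to Kis2 (0.76), Kcnd1 (0.76) and Foxh1 (0.75), and Tal1 to Plcb2 (0.75), Alx1 (0.70) and Inpp5f (0.69). Among the members themselves the closest pair was Hbb-bh1 and Hba-x (r = 0.86), and Tal1 and Tie1 had r = 0.51. Hbb-bh1 had no read in 27 of the 45 libraries and Hba-x in 37. Each r of these globins, also with their nearest genes, therefore rests on few libraries with reads.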

How the data were processed

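RNA was depleted of ribosomal RNA, made into directional libraries and sequenced in 45 libraries. Per the study's methods, the authors trimmed reads with TrimGalore, aligned them with TopHat2 (1 mismatch, guided by Ensembl release 82) to GRCm38 and deposited raw read counts per gene from strand-specific featureCounts. Each table held 35372 rows, of which 435 had no symbol and took at most 0.00140% of the counts of a library. Library totals gave the CPM, and the Wilson intervals and 3-count floors cover counting error only. The counts were tested with edgeR 4.0.16 (R 4.3.3): TMM factors, filterByExpr, quasi-likelihood F tests, Benjamini-Hochberg adjustment over all genes tested, threshold 0.05. Terms were course, starting medium and day at days 5 and 7, day and medium within EB, and day and course from 2iL. Simulated counts were run through EB against FA at days 5 and 7 and through 2iL day 3 against day 0. Within EB they were run through the step to days 5 and 7 and that from day 5 to day 7. The other comparisons were not simulated, and no outcome is given here. Alternatives were DESeq2 1.42.0, no TMM, no filter, fewer terms, 41 libraries in 1 fit, other days, and each library left out in turn. The 10 members and all lists were chosen with earlier results of these data known. Members were all named, and of each list at most the 4 genes with the highest mean CPM in late EB and defining markers at or near 0 reads, unless said otherwise. Positions and exon lengths came from GENCODE M21. Protein sequences were not used here.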

Additional observations from a re-analysis of the deposited data

Results flagged for a closer look

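In sets of 4 libraries of days 5 and 7, a value was taken as apart when its gap to the nearest other value exceeded Dixon's limit for 4 samples. Of 15 sets tested, 4 had such a value, and chance gives about 1 in 20 among replicates of a group. These sets mix media and days, so that rate does not hold for them as such. In EB the library from 2iL at day 7 stood apart in Kdr (140.0 CPM), Hbb-bh1 (3.81 CPM) and Tie1 (4.69 CPM). In N2B27 the library from 2iL at day 5 stood apart in Tie1 (1.66 CPM).

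The change from day 5 to day 7 differed in direction between EB and N2B27 for 3 members in both media, without the share of all genes that did so beside it. The difference of changes on the log2 scale was 3.85 for Kdr (adjusted p = 0.108 by edgeR), 6.61 for Hbb-bh1 (0.0544) and 7.07 for Tie1 (0.0398), and only that of Tie1 passed the test. The comparison was chosen after the values were seen, and the call of Tie1 was lost under 6 of 9 alternatives, all of them leaving out 1 library. In cells from SL, Tie1 had 4 and 2 reads in N2B27 and Hbb-bh1 had 1 and 7 reads in EB, with overlapping 95% Wilson intervals.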

How the results depend on the processing

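Of 25 calls of single members, 11 kept direction and call under each alternative run, among them Etv2 and Cdh5 against N2B27, Cdh5 in FA against N2B27, Kdr and Cdh5 in EB after day 3 and the fall of Pecam1 from 2iL. Both counts include calls that rest on the lone SL library of day 0, which are no test of the media. Counts are few, so 1 member moves them. Members called under DESeq2 numbered 5 for EB against FA, 4 for FA against N2B27, 4 for EB days 2.5 and 3 against days 1 to 2 and 1 for 2iL day 1 against day 0. Without the terms not compared (no replicate block), they were 0 for EB against FA, 1 for FA against N2B27, 1 for the early EB step and 2 for EB day 7 against day 5, and the pairing by medium, day or course changed no other count by over 1.5 times. With the spread of 41 libraries they were 5 for EB against FA, 4 for FA against N2B27, 7 for EB day 7 against day 5 and 3 for the change from day 5 to day 7. With days 3, 5 and 7 EB against FA gave 2, and with library totals alone the early EB step gave 1. Leaving out each library in turn gave 0 to 2 for EB against FA, 1 to 2 for FA against N2B27, 1 to 2 for the early EB step, 0 to 7 for EB day 7 against day 5, 0 to 1 for EB from 2iL against SL, 2 to 4 for 2iL day 3 against day 0 and 0 to 3 for the change from day 5 to day 7. Where 1 library was left in an arm, it was taken to vary like the rest. On leaving out single libraries, the change of Gata1 from day 5 to day 7 of EB ran from -0.13 (without EB from 2iL at day 7) to 3.04, and the difference of Tie1 between EB from 2iL and SL from -0.11 (without the day 7 library of either medium) to 2.37, and the cause was not tested. The interaction could not be estimated without FA from 2iL at day 7. With library totals alone, 59.1% of called genes were higher in EB than in N2B27 (46.5% with TMM) and 60.9% higher in FA (48.2% with TMM), and the median gene shifted by 0.11 for EB. Of all genes, EB against FA called 921, against 2086 with DESeq2, 3404 with 41 libraries, 2701 with day 3 and 609 without the block. FA against N2B27 called 3284, against 5456 with 41 libraries and 1928 without the block. EB day 7 against day 5 called 921, against 1545, 1675 and 258 with DESeq2, 41 libraries and no block. The early EB step went from 5486 to 2193 and 2iL day 1 from 4663 to 3053 without the block, EB from 2iL against SL from 629 to 1146 and the interaction from 0 to 100 with DESeq2, and the change from day 5 to day 7 from 358 to 1060 with 41 libraries. The depth sets the limit for Lyl1, Hba-x and Hbb-bh1, whose libraries mostly held under 10 reads.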
